A study of Mus musculus with 141 samples.

Results

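Genes of the acute-phase response, the plasma proteins that the liver makes in inflammation, were followed across tissues and strains of the Collaborative Cross (CC). The 10 genes, of 24423 listed in each file, were taken as a named family, with earlier results of these data known: the serum amyloid A genes Saa1, Saa2, Saa3 and Saa4, haptoglobin (Hp), hemopexin (Hpx), the orosomucoids Orm1 and Orm2, lipocalin 2 (Lcn2) and serum amyloid P (Apcs). All 10 were found in every library. The CC is a panel of recombinant inbred mouse strains that each carry a mosaic of 8 founder genomes, and whole liver, lung and kidney were taken from 1 adult male mouse, 8 to 12 weeks old, of each of 47 strains. All mice were controls kept in filtered air, placed in inhalation chambers for 6 hours a day over 2 weeks, with no agent given, so no group was inflamed by design. With 1 mouse per strain, the strain and the individual mouse cannot be told apart, and a high value in 1 strain has no replicate. RNA was sequenced after depletion of ribosomal RNA. The measured values were expected read counts and TPM, a level scaled by transcript length and by the library total.

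The acute-phase response is the change in plasma proteins that follows infection or injury. Cytokines, above all interleukin 6 and interleukin 1, act on hepatocytes, which then transcribe acute-phase genes through STAT3, NF-κB and C/EBP factors. Saa1 and Saa2 encode the inducible, lipoprotein-bound amyloid A proteins, whereas Saa4 encodes the constitutive form of liver and Saa3 is known for expression outside the liver, in macrophages and epithelia. Hp binds free hemoglobin and Hpx free heme, the orosomucoids carry small hydrophobic molecules, Lcn2 sequesters bacterial siderophores and is stored in neutrophils, and Apcs is the pentraxin that is the main acute-phase reactant of the mouse in the place that C-reactive protein has in humans.

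The 4 Saa genes lie side by side on chromosome 7 of the NCBIM37 build, with Saa3 at chr7:53967368-53971046, Saa4 at chr7:53983387-53987913 and Saa1 at chr7:53995871-53998350 on the minus strand, and Saa2 at chr7:54007203-54009684 on the plus strand. Saa1 and Saa2 are thus transcribed away from each other. The orosomucoids form a second cluster on the plus strand of chromosome 4, with Orm1 at chr4:63005594-63009197 and Orm2 at chr4:63023483-63026912. Hpx is at chr7:112740127-112748630, Hp at chr8:112099030-112103072, Lcn2 at chr2:32240153-32243317 and Apcs at chr1:174824093-174825185, all on the minus strand. The libraries were read in single 50-base reads and only uniquely aligned reads were counted, so the genes differ in how much of their exons can be counted. Of all 50-base windows in annotated exons, 69.9% in Orm1 and 64% in Orm2 matched the genome once, against 86.6% in Saa1, 88.2% in Saa2, 97.5% in Saa3, 97.3% in Saa4 and 100% in Hp, Hpx, Lcn2 and Apcs. Counts of the orosomucoids, and to a lesser degree of Saa1 and Saa2, may therefore be split or lost between near-identical copies, and their strain differences are uncertain to that extent.

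The 250 bases before the transcript start are shown for the 4 Saa genes, because Saa1 was correlated with Saa2 and with Saa4 across livers and the promoters of the cluster can be compared. The sequences are from RefSeq on the GRCm38.p6 build, read 5′ to 3′ on the gene's strand, and end at the base before the start; Saa1 spans chr7:46742981-46743230, Saa2 chr7:46751583-46751832, Saa3 chr7:46715677-46715926 and Saa4 chr7:46732604-46732853. Capitals mark matches on either strand to the letters TTNNGNAA, a form of the C/EBP motif.
Saa1: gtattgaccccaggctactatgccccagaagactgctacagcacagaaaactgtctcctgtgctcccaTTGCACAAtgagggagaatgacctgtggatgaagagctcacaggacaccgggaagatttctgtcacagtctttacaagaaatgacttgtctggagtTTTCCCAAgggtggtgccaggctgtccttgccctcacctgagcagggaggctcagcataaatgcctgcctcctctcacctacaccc
Saa2: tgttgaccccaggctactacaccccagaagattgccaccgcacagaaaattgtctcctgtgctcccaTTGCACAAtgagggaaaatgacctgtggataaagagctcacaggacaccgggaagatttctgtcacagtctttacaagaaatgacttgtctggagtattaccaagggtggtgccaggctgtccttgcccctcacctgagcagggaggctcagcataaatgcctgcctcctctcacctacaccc
Saa3: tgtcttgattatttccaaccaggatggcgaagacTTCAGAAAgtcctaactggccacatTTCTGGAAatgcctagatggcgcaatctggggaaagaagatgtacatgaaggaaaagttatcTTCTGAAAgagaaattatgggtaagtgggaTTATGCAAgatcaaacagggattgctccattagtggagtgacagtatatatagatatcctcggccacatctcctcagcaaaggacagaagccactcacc
Saa4: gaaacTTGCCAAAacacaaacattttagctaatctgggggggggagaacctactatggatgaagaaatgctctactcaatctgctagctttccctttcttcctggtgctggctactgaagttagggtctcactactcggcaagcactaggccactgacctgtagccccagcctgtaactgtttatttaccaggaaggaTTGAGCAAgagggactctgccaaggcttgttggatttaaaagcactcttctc
The promoters of Saa1 and Saa2 were 94.8% identical over 251 aligned positions, and every other pair of the 4 was between 44.7% and 50.6% identical. The C/EBP letters were found 2 times in Saa1, 1 time in Saa2, 4 times in Saa3 and 2 times in Saa4, and they occur in 36.8% of all 32851 promoter windows of this length. Saa1 and Saa2 share the match nearer to the distal end of the window, whereas the match 86 bases before the start is in Saa1 alone of the pair. The letters GGANTTTCC (NF-κB), TTCNNNGAA (STAT) and TATAAA were in none of these 4 windows, and are in 1.07%, 7.02% and 12.4% of all windows. Promoters of Hpx, Orm2, Lcn2 and Apcs were also matched, and those of Hp and Orm1 were not.

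Library totals were 1738046 to 42158454 counts in liver, 2829104 to 17585682 in lung and 3046695 to 15028553 in kidney, so that 3 counts, taken here as the floor of detection, corresponded to a median of 0.288, 0.321 and 0.364 CPM, the counts scaled to the library total. Despite depletion, the ribosomal precursor Rn45s and Lars2 together took 0.113% to 76.5% of all TPM in liver, 0.428% to 81.7% in lung and 0.085% to 65.4% in kidney. A gene's TPM falls as that share rises, so values with TMM factors (trimmed mean of M values) are given beside the TPM for several libraries with a high share. Each tissue carried its own markers: the summed TMM-normalised TPM of 8 hepatocyte genes was 37302 to 132406 in liver, that of 5 lung epithelial genes 48903 to 134494 in lung and that of 5 kidney epithelial genes 37035 to 140098 in kidney. The same hepatocyte sum was 3.92 to 1148 in lung and 23.4 to 1368 in kidney, a point that bears on Hpx. Strains CC032 and CC042, and the strains with the most extreme member values, CC004, CC016, CC020 and CC040, were left out in turn as alternatives, and 0 pairs of libraries held identical values.

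Levels of the serum amyloid A genes differed by tissue and, for Saa1 and Saa2 in liver, by strain over a wide range. Saa1 in liver was at 15.1 TPM in the lowest strain (CC002), 79.4 TPM in the median strain and 10730 TPM in the highest (CC004), a range of 711-fold. Saa2, its inducible partner, spanned 2.36, 32.1 and 6431 TPM with the same strains at both ends. In lung and kidney both were at or near the floor: 39 of 47 lungs held at most 3 counts of Saa1 and 39 of Saa2, and 42 and 44 of 47 kidneys did. A few libraries of these tissues stood out, CC017 lung with 24 TPM of Saa1 and 20.2 of Saa2 (32 and 27 counts), and CC049 kidney with 39.9 and 25.9 TPM (49 and 32 counts). Saa4, the constitutive form, had a narrower range in liver, with 45.8 TPM in CC046, 292 TPM in the median strain and 961 TPM in CC004.

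Saa3 was the one amyloid A gene whose median was higher in lung than in liver on the TPM scale. Its liver values were 0.71, 8.43 and 513 TPM (lowest, median and highest) and its lung values 0, 12.8 and 1256 TPM, the last in CC040, while the next lung had 69.6 TPM. In kidney it reached at most 2.19 TPM, with 46 of 47 libraries at or under 3 counts. Saa4 was the exception among amyloid A genes in kidney. Its median there was 1.10 TPM and 17 of 47 kidneys held at most 3 counts, but CC042 had 37.2 TPM (295 counts), CC053 36.2 (479 counts), CC005 35.8 (376 counts) and CC019 25.9 TPM (174 counts), and the next kidney, CC003, had 18.0 TPM.

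**Figure D1:**
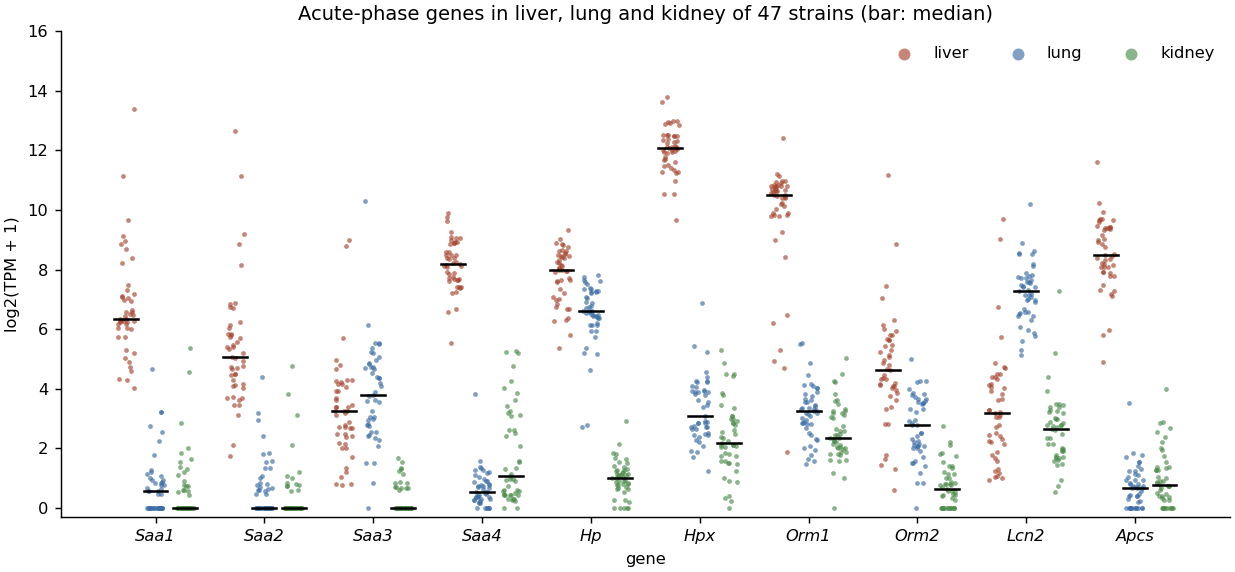
TPM of the 10 genes on a log2(TPM + 1) axis, with 1 point per strain in liver (red), lung (blue) and kidney (green) and a bar at the median of 47. Liver is the highest tissue for most genes; Lcn2 and Saa3 have their higher medians in lung, at 155 and 12.8 TPM.

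Haptoglobin was measured at high levels in liver and lung, and hemopexin mainly in liver. Hp was at 40.5, 253 and 634 TPM in liver and 5.60, 95.5 and 223 TPM in lung, so the ranges of both tissues overlapped, whereas in kidney its highest value was 6.45 TPM and 22 of 47 libraries held at most 3 counts. The lowest lungs, CC015 with 5.60 and CC055 with 5.84 TPM, were also the lungs with the largest shares of Rn45s and Lars2 (81.7% and 70.4%), and after TMM scaling they still held the lowest values of the 47 for CC055 (14.3) and 22.1 for CC015, against a median of 99.4. Hpx was the most abundant member, with 807, 4316 and 14301 TPM in liver. Its lowest TPM was in CC033, the liver with the largest share of Rn45s and Lars2 (76.5%), and after TMM scaling the lowest liver was CC006 at 1641. Hpx was at 1.38, 7.47 and 118 TPM in lung and 0, 3.50 and 38.8 TPM in kidney.

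Orm1 was the next gene in liver, with 2.63, 1441 and 5423 TPM, and Orm2 was far below it with 0.53, 23.5 and 2307 TPM. Orm1 exceeded Orm2 in 47 of 47 livers, by a median of 5.59 on the log2(TPM + 1) scale, but by only 1.23 in CC004, where Orm2 reached its maximum. In lung they were close, at medians of 8.51 TPM for Orm1 and 5.85 for Orm2, and in kidney at 4.12 and 0.56. Lcn2 was at 0.91, 8.13 and 829 TPM in liver, 33.7, 155 and 1172 TPM in lung and 0.46, 5.22 and 153 TPM in kidney. Lung thus held the highest median of Lcn2, and its lowest lung value exceeded the liver median. Apcs was at 28.8 TPM in CC007, 355 TPM in the median strain and 3138 TPM in CC004 liver, and 35 of 47 lungs and 31 of 47 kidneys held at most 3 counts of it.

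By median TPM the order in liver was Hpx, Orm1, Apcs, Saa4, Hp, Saa1, Saa2, Orm2, Saa3 and Lcn2. A step in this order was called larger than its spread where the mean within-mouse log2 difference exceeded its SD over the 47 mice. That held from Hpx to Orm1 (2.30 ± 2.12, SD) and from Saa1 to Saa2 (1.36 ± 1.10), and for no other liver neighbours. In lung the order was Lcn2, Hp, Saa3, Orm1, Hpx, Orm2, Apcs, Saa1, Saa4 and Saa2, with steps beyond the spread from Hp to Saa3 (2.67 ± 1.55) and from Orm2 to Apcs (1.99 ± 1.34). In kidney, where Lcn2 and Orm1 led at 5.22 and 4.12 TPM, no neighbours differed beyond their spread.

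The comparison of liver with lung asked which of these genes belong to one tissue, and was fitted over the libraries of all 3 tissues with tissue and strain as terms (limma-voom, Benjamini-Hochberg adjusted p, written q, over 12127 genes). The authors also modelled sequencing batch, but the sample labels name no batch, so none was fitted here. A gene passed at q of at most 0.1 and a log2 fold change of at least 1. In bulk tissue, fewer cells of a type and less RNA per cell cannot be told apart. Of the 10 members, 8 were higher in liver, against 23.9% of all genes tested, and 1, Lcn2, was higher in lung, against 31% of all genes. Saa4 and Apcs differed by 10.53 ± 0.38 (SE) and 10.52 ± 0.38 on the log2 CPM scale, with mean CPM of 431 ± 238 (SD, n = 47) against 0.409 ± 0.747 for Saa4 and 288 ± 266 against 0.214 ± 0.341 for Apcs. Both were higher in the liver of 47 of 47 mice and their ranges did not overlap, but 27 and 35 of 47 lungs held at most 3 counts, so the size of these fitted folds depends on values near the floor. Hpx was higher by 10.31 ± 0.29, Saa1 by 8.60 ± 0.45, Orm1 by 8.49 ± 0.33, Saa2 by 7.41 ± 0.48 and Orm2 by 4.23 ± 0.43. Hp was the least liver-restricted of those that passed, higher by 2.79 ± 0.23, and on CPM higher in the liver of 47 of 47 mice. By TPM, 4 mice (CC029, CC033, CC035 and CC038) had more Hp in lung, such as 166 against 77.7 TPM in CC029. The livers of CC033, CC029 and CC038 had the largest shares of Rn45s and Lars2 (76.5%, 64.5% and 58.2%), which lower their TPM, and that of CC035 had 35.1%. After TMM scaling within each tissue CC029 was at 154 in liver and 135 in lung. For these 8 genes the largest q was 3.11e-16. Lcn2 was lower in liver by 2.02 ± 0.37 (q = 4.37e-07), with 43 of 47 mice higher in lung. Saa3 did not pass (0.97 ± 0.49, q = 0.0519): 31 of 47 mice were higher in liver on CPM, and on the log2(TPM + 1) scale the difference was -0.54, where the median of all genes was -1.21, so that no direction is given. In a fit of liver and lung alone it passed as higher in liver (1.14, q = 0.0104). Without TMM, total counts shifted that median to -1.44, and 1186 genes were then higher in liver and 7474 in lung, in place of 2901 and 3763.

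Against kidney, all 10 members were higher in liver, where 15.6% of all genes tested were higher in liver and 20.8% in kidney. The differences ran from 11.12 ± 0.26 for Hpx and 9.56 ± 0.30 for Apcs to 5.03 ± 0.49 for Saa3 and 2.14 ± 0.40 for Lcn2, and the largest q was 6.93e-07. The Lcn2 difference rested on fewer mice than the others, with 38 of 47 higher in liver, and it was 0.74 (q = 0.00511) on the log2(TPM + 1) scale, under the fold threshold. Hp differed by 8.75 ± 0.23, with a mean of 205 ± 97.4 CPM in liver and 0.542 ± 0.559 CPM in kidney.

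Between lung and kidney, 4 members were higher in lung, where 25.5% of all genes tested were higher in lung, and 1 was higher in kidney, where 20.6% were. Those higher in lung were Hp (5.96 ± 0.23, higher in 47 of 47 mice), Lcn2 (4.17 ± 0.34, 46 of 47), Saa3 (4.06 ± 0.48, 46 of 47) and Orm2 (2.07 ± 0.44, 43 of 47), with a largest q of 1.36e-05. Saa4 was the member higher in kidney, with lung lower by 3.11 ± 0.44 (q = 3.70e-10) and 37 of 47 mice higher in kidney. For Saa4, 27 of 47 lungs and 17 of 47 kidneys held at most 3 counts. The same held in 46 of 47 kidneys for Saa3, 41 for Orm2 and 22 for Hp. The size of these fitted folds therefore depends on values near the floor. Apcs (-0.95 ± 0.43, q = 0.0319), Hpx (0.81 ± 0.31), Orm1 (0.15 ± 0.35), Saa1 (-0.26 ± 0.50) and Saa2 (-0.09 ± 0.53) did not pass. Of these, Apcs was past the threshold with edgeR (-1.45, q = 0.00214) and DESeq2 (-1.09, q = 0.00403), and in a fit of those tissues alone (-1.17, q = 0.0011). Hpx was past it as higher in lung with total counts (1.12) and on log2(TPM + 0.1) (1.28).

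Other genes of the response, listed by role, showed which of its parts were measurable in these libraries. Of 7 inducing cytokines only Il1a and Il1b passed the count filter. Il1b was higher in lung than in liver (-1.04 ± 0.18 for liver against lung) and Il1a higher in liver (1.61 ± 0.16), while Il6 reached at most 0.15 TPM in liver, 0.65 TPM in lung and was listed at 0 in all kidneys. Of 20 receptors and signalling genes 12 were tested: in liver against lung 3 were higher in liver (Il1rap, Il1r1 and Lifr, by 3.42, 1.77 and 1.30) and 1, Nfkb1, in lung, and against kidney 7 were higher in liver, beside 23.9%, 31% and 15.6% of all genes. Socs3, a feedback inhibitor of STAT3 signalling, was higher than in kidney by 3.26 in liver and by 3.24 in lung. Stat3 itself had a median of 0.32 TPM in liver, and Cebpb was listed at 0 in every library, so that these inducers are not described further. Among transcription factors of liver, Hnf4a, Foxa3 and Ppara were higher in liver than in lung, by 7.97, 7.61 and 5.41. Cebpd, an inducible C/EBP factor, was lower in liver (-2.52 ± 0.15).

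Of 23 further positive acute-phase genes 20 were tested. In both comparisons with liver 20 of 20 were higher in liver, beside 23.9% of all genes against lung and 15.6% against kidney. The median differences were 4.78 from lung and 7.66 from kidney, where the median over all genes tested was -0.06 and -0.00340. The fibrinogen chains Fgb, Fga and Fgg, the substrate of clotting, led from lung with 11.24, 11.11 and 10.89, and C-reactive protein (Crp) followed with 10.60. Between lung and kidney 11 of 20 were higher in lung, beside 25.5% of all genes. Among them were Serpina3n, a protease inhibitor, by 4.72 and C3, the central complement component, by 3.32. In kidney 4 of 20 were higher (Fga, Cfb, Fgg and Mt1, at -3.17, -2.45, -1.55 and -1.14 for lung against kidney), a share like the 20.6% of all genes. All 9 negative acute-phase genes, whose plasma proteins fall in inflammation, were higher in liver in both comparisons, beside the same 23.9% and 15.6%. The largest differences were those of Ttr (11.01) and Alb (10.99) from lung and Ahsg (10.99) and Apoa1 (10.98) from kidney. Between lung and kidney, 2 of the 9 were higher in lung (Trf and Rbp4) and 2 in kidney (Ttr and Apoa4), near the 25.5% and 20.6% of all genes. Of 12 receptors and clearance genes 10 were tested. Against lung 1 was higher and 5 were lower in liver, beside 23.9% and 31% of all genes. Against kidney 4 were higher and 3 lower in liver, beside 15.6% and 20.8%. Lrp2 (megalin) and Cubn (cubilin), which take up filtered proteins in the proximal tubule, were higher in kidney than in liver (-8.54 and -8.76 for liver against kidney), and Lrp1, the receptor for heme-bound hemopexin, was higher in liver than in kidney by 3.68.

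Within liver, the strains differed by a member-specific amount. The SD of log2(TMM-normalised TPM + 1) over the 47 strains was 2.11 for Orm1, 2.07 for Saa2, 1.90 for Orm2, 1.88 for Lcn2, 1.81 for Saa1 and 1.68 for Saa3, and 1.14 for Apcs, 0.80 for Saa4, 0.72 for Hp and 0.63 for Hpx. The median SD over all genes that passed the TPM filter in liver was 0.335, and 87.4% (Hpx) to 99.5% (Orm1) of those genes had a smaller SD than a member. Part of this spread came from a few livers: without CC004, CC016, CC020 and CC040 the SD was 1.22 for Saa1, 1.51 for Saa2 and 1.13 for Saa3. At low levels counting noise raises this SD, while the added 1 lowers it (Saa3 was at 1.89 with 0.1 added instead), and it mixes strain and mouse.

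The livers of CC004 and CC016 held the highest values of many members. After TMM scaling CC004 had the highest liver value of 8 members (Saa1, Saa2, Saa4, Hpx, Orm1, Orm2, Lcn2 and Apcs), while that liver was the highest for 2.94% of the 9002 genes that passed the filter. CC016 was the highest for Saa3 and among the top 2 for 7 members, and was the highest for 6.20% of all genes. Lcn2 was at 829 TPM in CC004 and 524 in CC016 (833 and 707 after TMM scaling), and the next liver, CC020, was at 105 TPM. For Saa1 the values were 10730 TPM in CC004, 2268 in CC016 and 808 in CC040, and for Orm2 2307, 466 and 174, the last in CC049. Hp was the exception: CC004 was at 278 TPM, near the median of 253, and after TMM scaling CC010 was highest (579) and CC016 next (490). Of 20 further positive acute-phase genes with enough signal in liver, CC004 was the highest strain for 14, including Crp, C3, Lbp and Serpina3n, whereas CC016 was the highest for 0. The hepatocyte marker sum was 47748 in CC004, 43rd of 47 from the top, and 75679 in CC016. Neutrophil markers (12 genes, of which only S100a8 passed the filter, and S100a9 and Csf3r were at or under the floor in all livers) summed to 157 in CC016, the highest of a range of 0 to 157 with a median of 3.59, and to 14.7 in CC004. Macrophage markers (7 of 7 passing) summed to 920 in CC016 and 520 in CC004, the highest pair in a range of 128 to 920 with a median of 221. Il1b was highest in CC016 too, at 22.0 against a median of 3.74 TMM-normalised TPM. The part of these cells in the member values was not tested.

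**Figure D2:**
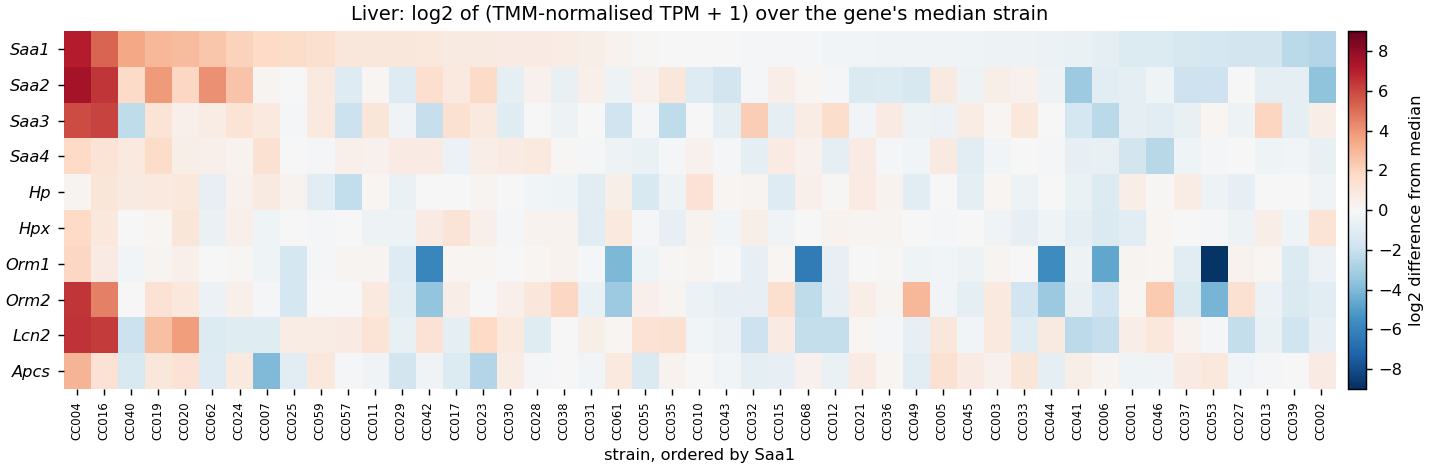
Each cell gives the liver value of 1 gene (rows) in 1 strain (columns, ordered by Saa1) as the log2 difference of TMM-normalised TPM + 1 from that gene's median strain, red above and blue below. The columns of CC004 and CC016 are red in most rows, and Orm1 is dark blue in a handful of strains spread over the Saa1 order.

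Pairs of members were then compared across strains. No batch could be fitted, so any difference between sequencing batches remains within the differences between strains in all correlations given here. Across the 47 livers, 3 of 45 pairs of members were correlated at q of at most 0.1 (Pearson r of rank inverse normal values, permutation test with 100000 resamples, Benjamini-Hochberg over 89965 pairs of a member and any gene), all positive, while 0.0478% of all such pairs were called as positive and 0.0233% as negative. Saa1 and Saa2 had r = 0.720 (permutation p = 1e-05, the smallest that 100000 resamples can give, q = 0.0473) and Spearman's rho = 0.661 (permutation p = 1e-05), and r = 0.666 without CC004 and CC016, the strains farthest from the median of Saa1. Saa1 and Saa4 had r = 0.670 (permutation p = 1e-05, q = 0.0473), rho = 0.669 (permutation p = 1e-05) and r = 0.611 without the same strains. Saa2 and Saa4 reached r = 0.525 (q = 0.118). The third called pair was Orm1 with Orm2, whose values follow within sets of strains. Saa3 had r = 0.262 to Saa1 (q = 0.581), 0.368 to Saa2 (q = 0.347) and 0.185 to Saa4 (q = 0.749), and Apcs had r = -0.00124 to Saa1.

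Over the 36 pairs that leave out Orm1, the median r was 0.265 (range -0.00124 to 0.720), and 35 of 36 were above 0. Without CC004, CC016, CC020 and CC040 the median r fell to 0.0799 (range -0.215 to 0.633), with 28 of 36 above 0. For comparison, the median r of these members with other genes of liver was 0.00242 and 0.0107 in the same strains. On the log2 scale, where extreme strains weigh more, the medians were 0.377 with and 0.0805 without these 4 strains, and 11 of 45 pairs were called in all 47 strains. The members share libraries and scaling, so these medians are a description. In lung 0 of 15 pairs and in kidney 0 of 6 pairs were called (background 0.464% positive and 0.379% negative in lung, 0.221% and 0.0418% in kidney), with the highest r for Orm1 with Orm2 in lung (0.407) and for Hpx with Orm1 in kidney (0.453).

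**Figure D3:**
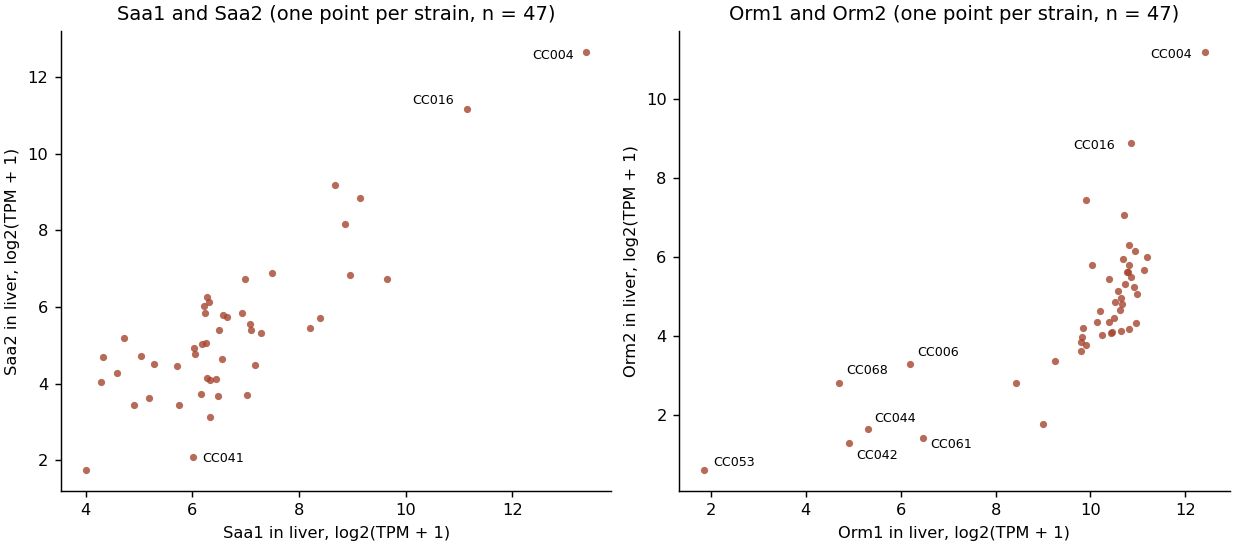
Liver log2(TPM + 1) of Saa2 against Saa1 (left) and of Orm2 against Orm1 (right), 1 point per strain. Saa1 and Saa2 rise together up to CC016 and CC004, whereas the Orm1 axis shows 6 labelled strains below 100 TPM and a gap up to 344 TPM.

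Orm1 split the livers into separate sets of values. In 6 of 47 strains it was below 100 TPM, and the other 41 began at 344 TPM (CC029), with a median of 1567 TPM. The liver of CC029 had a share of Rn45s and Lars2 of 64.5%, and after TMM scaling it was at 681, the lowest of the 41 was CC025 at 510 and the highest of the 6 was CC061 at 89.3. The low livers were CC053 with 2.63 TPM (10 counts), CC068 with 25 (109 counts), CC042 with 29.1 (100 counts), CC044 with 38.4 (55 counts), CC006 with 72.3 (148 counts) and CC061 with 87.1 TPM (260 counts). In the same livers Orm2 was at 0.53, 6.02, 1.47, 2.11, 8.85 and 1.69 TPM, the lowest in CC053, and among the 8 lowest strains in each. In most of the 6, low Orm1 in liver did not go with low Orm1 elsewhere, although on few counts. In lung they had 8.83, 9.19, 8.04, 3.20, 6.02 and 8.05 TPM (11, 20, 37, 4, 24 and 21 counts), near the lung median of 8.51 in most. In kidney they had 4.03, 3.78, 4.96, 1.27, 3.70 and 4.45 TPM (19, 19, 14, 1, 11 and 9 counts). CC044 was the 7th lowest lung and the 3rd lowest kidney. Because of the gap no r of Orm1 over all 47 livers is given, although its pair with Orm2 is among the 3 counted there. Within the 41 strains above 100 TPM, Orm1 and Orm2 had r = 0.744 (permutation p = 1e-05, q = 0.00018 over the 18 relations computed within both sets), rho = 0.725 (permutation p = 1e-05) and r = 0.689 without the 2 farthest strains. Lcn2 (r = 0.50, permutation p = 0.00083, q = 0.00747; rho = 0.468, permutation p = 0.00216; r = 0.507 without 2 strains) and Saa2 (r = 0.468, permutation p = 0.00215, q = 0.0129; rho = 0.398, permutation p = 0.0109; r = 0.441) were also related to Orm1. Apcs (r = 0.358), Saa1 (r = 0.349) and Saa4 (r = 0.339) passed with the same q of 0.0884 and had rho = 0.274, 0.277 and 0.324 (permutation p = 0.0831, 0.0803 and 0.0386; r without 2 strains 0.241, 0.362 and 0.269). Within the 6 strains none of 9 relations was called (smallest q = 0.351). How far reads of strain-specific Orm1 sequence were lost in counting was not tested.

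The libraries of 1 mouse allow the same gene to be compared between tissues. Hp was correlated between liver and lung of the same mouse (r = 0.50, permutation p = 0.00029, q = 0.00733; rho = 0.461, permutation p = 0.0012), and r was 0.409 without the 2 strains farthest from the median, CC055 and CC057. Of 6 members tested in both tissues it was the only one called, where 13% of all 8517 genes were called as positive and the median r over all genes was 0.136. As a count this is near the share of all genes. Scaling mattered here: without TMM, r was 0.305 and did not pass (q = 0.527). For liver and kidney 1 of 4 members was called, where 23.1% of 8483 genes were, a share like that of all genes. This was Saa4 (r = 0.332, permutation p = 0.0226, q = 0.0972; rho = 0.313, permutation p = 0.0324), and without CC032 and CC042 its r was 0.290 and it missed the threshold (q = 0.170), while Lcn2 passed there (r = 0.338, q = 0.0982; 0.291 and 0.157 in all 47). Between lung and kidney 0 of 3 members were called, against 17% of 10057 genes. Saa3 in liver and lung had r = -0.000885. CC040 had the highest Saa3 of any lung (1256 TPM) and the lowest of any liver by TPM (0.71). That liver value is 1 count, under the floor, and after TMM scaling the lowest liver was CC006. The livers with the most Saa3, CC004 and CC016 (513 and 440 TPM), had lungs at 45.3 and 45.2 TPM, above the lung median of 12.8.

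**Figure D4:**
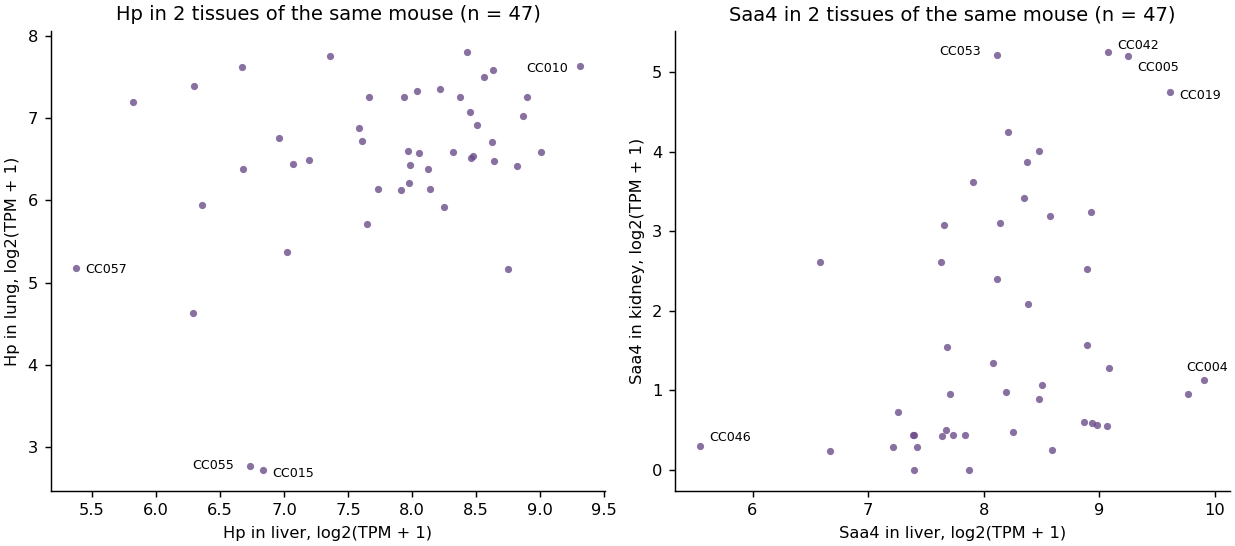
Values of the same mouse in both tissues, on log2(TPM + 1) axes with 1 point per strain: Hp in liver and lung (left) and Saa4 in liver and kidney (right). The plotted TPM are without TMM scaling, unlike the values behind the main r. Lungs CC015 and CC055, which had the largest shares of Rn45s and Lars2, lie apart at the bottom of the Hp plot. The 4 kidneys with over 25 TPM of Saa4 lie at the top of the other.

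In lung and kidney, single libraries again carried the extremes. Lung of CC040 was the highest for 4 members, Saa3 (1069 TMM-normalised TPM, next 58.1), Lcn2 (998, next 372), Orm1 (38.4, next 33.4) and Orm2 (26.1, next 16.1), and for 5.06% of the 12389 genes tested in lung. Its neutrophil marker sum was 1758, the highest of a range of 56.8 to 1758 (6 of 12 markers passing the filter, Elane at or under the floor in all lungs), its macrophage sum was the highest at 467, and Il1b was the highest at 100 against a median of 25.2. The neutrophil sum was not correlated with Lcn2 over all 47 lungs (r = 0.00855, q = 0.992), and with Saa3 r was 0.297 (q = 0.427). With the macrophage sum r was higher, at 0.422 for Saa3 (permutation p = 0.00351, q = 0.282) and 0.282 for Lcn2 (q = 0.632), and neither passed. Kidney of CC020 had 153 TPM of Lcn2 (140 counts, 167 after TMM scaling), against 36.1 in the next kidney (CC046) and a median of 5.22. Its markers of injured tubule summed to 111, the highest of a range of 4.16 to 111 (1 of 5 markers, Vcam1, passing the filter). Its macrophage sum of 148 was also the highest, and its kidney epithelial sum of 37035 was the lowest of the 47. Its neutrophil sum was 0, but only 1 of 12 markers passed the filter in kidney, where the median sum was 3.98. The library held 3717587 counts, and the 0 is not read as an absence of neutrophils. The part of these cells in the Lcn2 value was not tested. That kidney was the highest for 8 of 16 other positive acute-phase genes, C3, Cp, Lbp and Serpina3n among them, and for 8.62% of all genes tested in kidney.

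Hpx in lung and kidney moved with liver genes. Over 47 lungs it had r = 0.897 with the hepatocyte marker sum (permutation p = 1e-05, q = 0.00203; rho = 0.875, permutation p = 1e-05; r = 0.889 without the 2 farthest strains), and over 47 kidneys r = 0.796 (permutation p = 1e-05, q = 0.00326; rho = 0.822, permutation p = 1e-05; r = 0.757 without 2), whereas over 47 livers r was 0.0965 (q = 0.992). After TMM scaling, CC010 lung was the highest for Hpx, Saa4 and Apcs, and CC027 kidney for Hpx, Hp, Orm1 and Orm2. The highest Hpx and the highest hepatocyte sum were in the same library in both tissues, CC010 lung (89.0 and 1148) and CC027 kidney (79.6 and 1368, TMM-normalised TPM). Per 1000 TPM of Alb, Hpx was at a median of 76.2 in liver, 110 in lung (range 37.8 to 1414) and 63.2 in kidney, whereas Hp was at 4.39 in liver and 912 in lung, and Lcn2 at 0.160 in liver and 2037 in lung. A ratio near that of liver was not particular to Hpx: Apcs was at 7.80, 6.56 and 8.30 in liver, lung and kidney, and Saa4 at 4.82, 6.71 and 13.5, on few counts outside liver. Orm1 was at 23.9, 77.5 and 66.3. Orm1 in kidney had r = 0.517 with the hepatocyte sum (permutation p = 0.0002, q = 0.0468; rho = 0.553, permutation p = 7e-05; r = 0.457 without 2). Hp in lung had r = -0.285 with it (q = 0.847) and Lcn2 r = 0.0242 (q = 0.991). Whether liver RNA reached those libraries was not tested. In liver, the neutrophil sum was related to Hpx (r = 0.509, permutation p = 0.00018, q = 0.0305; rho = 0.478, permutation p = 0.00074; r = 0.506 without 2), and to no other member at this threshold. Only 1 of its 12 markers, S100a8, passed the filter in liver, and the median sum was 3.59. With S100a8 alone Hpx had r = 0.554 (permutation p = 0.00011, q = 0.109 over all pairs of a member and any gene, a larger family than that of the sum). With 1 marker passing, the sum is not read as a measure of cell content. The q of the sum covers the genes of liver and not the several marker sums.

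**Figure D5:**
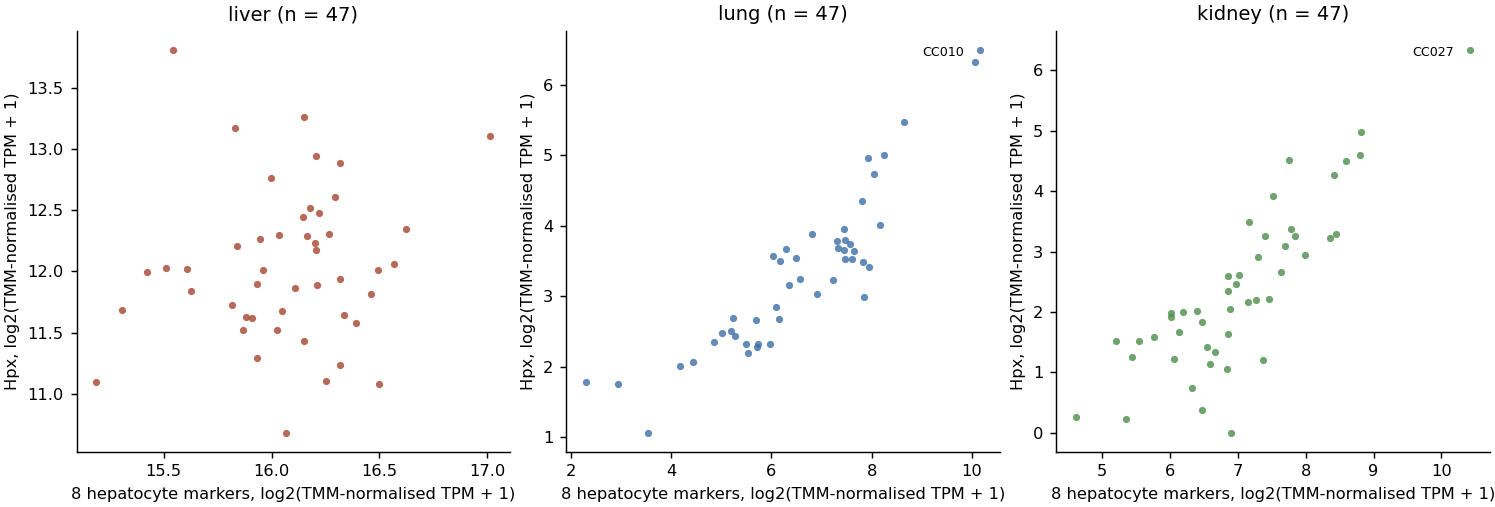
Hpx against the summed level of 8 hepatocyte markers, both as log2(TMM-normalised TPM + 1), with 1 point per strain in liver, lung and kidney. The points rise along a line in lung and kidney and not in liver; CC010 lung and CC027 kidney are the highest on both axes.

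Genes with the pattern most like a member's were named by Pearson r over the 47 strains of a tissue. For Saa1 in liver, beside Saa2 and Saa4, they were Gm7694 (r = 0.651), Prg4 (0.604) and Lrp1 (0.573), and the lowest r was that of Rpl15 (-0.614). For Hp in liver they were Hgsnat (0.607), Brk1 (0.551) and Unc50 (0.545), with Slc18a2 lowest (-0.550), the last pair just over the threshold (q = 0.102 each). For Apcs they were Eif2a (0.587), Rad51b (0.557) and the fibrinogen chain Fgb (0.536, q = 0.108), with Egln1 lowest (-0.531, q = 0.116). For Saa3 in lung they were Pnpla7 (0.600), Msln (0.597) and C1qa (0.593), with Mospd2 lowest (-0.649). For Lcn2 they were Slc26a4 (0.621), Nectin2 (0.605) and Reep4 (0.591) in lung, with Zfp148 lowest (-0.606), and Praf2 (0.626), Pomk (0.589) and Hn1l (0.584) in kidney, with Herpud1 lowest (-0.629).

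Some of the closest genes were neighbours on the chromosome. Among the 10 genes most like Hp in lung, 4 lay within 20 Mb of it on chromosome 8 (Cyba, Zdhhc7, Wwp2 and Zdhhc1, at 12.8, 10.5, 2.02 and 4.09 Mb), where 2.12% of the 11038 genes with a position did. Among those of Orm2 in liver, 5 lay within 20 Mb (Orm1, Orm3, Mup17, Fkbp15 and Acnat1), where 1.10% did. Orm2 shares 50-base exon windows with Orm1 and Orm3, so the counts of these genes may not be separate. The gene most like Hpx in liver, Smpd1 (r = 0.606), lies 0.0332 Mb from it, and Psma1 (r = 0.594), the next, lies 8.66 Mb away. For Orm1 and Orm2 in lung, Saa3, Apcs, Lcn2 in lung and kidney, and Hpx in lung and kidney, 0 of 10 lay within 20 Mb. These counts were made after the values were seen.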

How the data were processed

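Whole liver, lung and kidney of 47 CC mice gave 141 libraries of ribosomal RNA-depleted total RNA. The authors aligned single 50-base reads to strain pseudogenomes of mouse Build37 with STAR 2.5.3a and estimated gene values with RSEM from uniquely aligned reads on a RefSeq annotation. They deposited expected counts, not normalized, and TPM, scaled to transcript length and library total; 25 expected counts were not whole and were rounded.

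Tissues were compared with limma-voom (limma 3.58.1, edgeR 4.0.16, R 4.3.3) on TMM-scaled counts, with tissue and strain as terms, over genes above 1 CPM in at least 30% of libraries. The strain block rests on tissues of 1 mouse: median correlations of deviations were 0.166, 0.173 and 0.211 within a mouse, over 0.1 in 39, 45 and 43 of 47 pairs. Calls needed q of at most 0.1 (Benjamini-Hochberg) and a log2 fold change of at least 1. On simulated liver data (10238 genes) 200 of 200 changed genes were recovered with 0 false calls. These draws left out genes with low counts and held a large change and no strain effect. They therefore do not bear on calls near the floor. Correlations used genes with TMM-scaled TPM above 1 in over 50% of libraries of a tissue and 100000 permutations (scipy 1.17.1, numpy 2.4.6). DESeq2 1.42.0, other scalings, filters and thresholds were alternatives; leaving out CC004, CC016, CC020 and CC040, and the split of strains at 100 TPM of Orm1, were added after seeing the data. The members and gene lists were chosen with earlier results of these data known. Besides the members, genes of the lists with the largest differences past the threshold and the genes with the highest and lowest r were named. A p-value measures spread between mice of different strains, which includes any difference between sequencing batches, and floors cover counting error only. One result is not reported here.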

Additional observations from a re-analysis of the deposited data

How the results depend on the processing

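Of 330 fold changes of members recomputed under alternatives, 309 kept their direction and side of the threshold, 12 reversed, 6 newly passed and 3 no longer passed. The reversed values all concern genes without a call. Saa3 in liver against lung was -0.52 with total counts, -0.54 with log2(TPM + 1) and -0.57 with log2(TPM + 0.1), and passed at 1.14 in a fit of those tissues alone. In lung against kidney, Saa1 was 0.28, 0.11 and 0.41 under the same settings, and Saa2 was 0.43, 0.20 and 0.66, 0.043 with DESeq2 size factors, 0.016 with edgeR and 0.41 with DESeq2. In the paired design, the fit with no replicate block called 9, 10 and 5 members in the 3 tissue comparisons, as the fit with strain did.

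Counts of correlated pairs depended more on the scale. In liver 11 pairs were called on log2(TPM + 1) and 14 on TPM without TMM, in place of 3. In lung 4 were called without TMM and 1 with a TPM minimum of 0.5, in place of 0, and in kidney 1 on log2(TPM + 1), 1 without TMM, 3 with the minimum of 0.5 and 1 without the 4 strains with extreme values, in place of 0. Between liver and lung of the same mouse 0 members were called without TMM and 2 without those 4 strains, and between liver and kidney 0 on log2(TPM + 1), in place of 1 each. The cause was not tested. With 1 mouse per strain, no strain could be left out as a replicate of a group. Depth limits Saa1, Saa2 and Apcs in lung and kidney, Saa4 in lung, and Saa3 and Orm2 in kidney, where most libraries held at most 3 counts.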
